A study of Mus musculus with 6 samples.

Results

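STAT and IRF transcription factors carry signals of cytokines and interferons into the nucleus. The signals of 8 listed genes of both families were read across Ba/F3 cells whose growth depended on a PDGF receptor fusion kinase or on interleukin 3 (IL3): Stat2, Stat3, Stat5a, Stat5b, Irf1, Irf7, Irf8 and Irf9. Probe sets that the platform annotation pairs with a single listed symbol were taken, which gave 14 probe sets for all 8 genes, out of 22690 probe sets and 12393 named genes on the array. Where a gene has several, the one with the greatest mean log2 signal is given unless another is named.

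The samples were 6 Affymetrix arrays, 1 for each line and treatment, from Ba/F3, an established mouse line labelled as pro-B cells. One line carried the empty retroviral vector pMSCV and was kept in IL3, and the other lines carried ETV6-PDGFRB or FIP1L1-PDGFRA in the same vector and had been selected to grow without IL3. Untreated cells of each line were set beside cells kept for 4 h with 100 nM imatinib (Glivec), which blocks the tyrosine kinases ABL, KIT and PDGF receptor, in medium with fetal bovine serum. The design asks which transcripts depend on the fusion kinases, and vector cells given imatinib show what the drug does without a fusion. The labels do not say whether a line is 1 clone, and the fusion gene, the selection and the lack of IL3 cannot be told apart in comparisons with vector cells.

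STAT proteins wait in the cytoplasm, are phosphorylated by JAK or other tyrosine kinases, and pair up to bind DNA. STAT5A and STAT5B act downstream of the IL3 receptor and STAT3 downstream of the IL6 family. STAT2 and IRF9 are subunits of ISGF3, the complex that type I interferon activates, and ISGF3 binds the interferon-stimulated response element (ISRE). STAT homodimers bind the gamma-activated sequence (GAS). IRF1 and IRF7 are themselves products of interferon-stimulated genes, and IRF8 directs myeloid and B cell development. In Ba/F3 cells, STAT5 is the family member best known for carrying the growth signal of IL3 and of oncogenic tyrosine kinases.

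The RefSeq promoter windows of the members (build GRCm38.p6, 250 bases before to 50 after a gene start) numbered 13 and covered all 8 genes. GAS was searched as TTCNNNGAA and ISRE by a short core, GAAANNGAA, on both strands. The core was taken in place of a longer form after the matches of that form had been seen, and by its construction at least as many windows hold it. Of all 32851 windows of this length in the table, 8.3% held GAS, 8.56% held the ISRE core and 15.8% held at least 1 of them. Among the members' windows 2 held GAS and 1 held the ISRE core, and these 3 are shown because they are all that held a match. They belong to Irf1 and Stat2, which fell with imatinib, and to Irf8, which had no measurable signal. Capitals mark the matches, none of which overlaps another.
Irf1, chr11:53769764-53770063, plus strand, GAS 90 bases before the start: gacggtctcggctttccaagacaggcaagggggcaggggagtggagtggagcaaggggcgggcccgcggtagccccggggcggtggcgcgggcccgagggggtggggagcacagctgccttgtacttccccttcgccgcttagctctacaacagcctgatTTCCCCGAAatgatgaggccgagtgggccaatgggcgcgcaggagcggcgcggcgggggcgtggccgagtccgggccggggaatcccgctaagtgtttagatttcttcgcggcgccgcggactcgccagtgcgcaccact
Stat2, chr10:128270248-128270547, plus strand, ISRE core on the opposite strand, 221 bases before the start: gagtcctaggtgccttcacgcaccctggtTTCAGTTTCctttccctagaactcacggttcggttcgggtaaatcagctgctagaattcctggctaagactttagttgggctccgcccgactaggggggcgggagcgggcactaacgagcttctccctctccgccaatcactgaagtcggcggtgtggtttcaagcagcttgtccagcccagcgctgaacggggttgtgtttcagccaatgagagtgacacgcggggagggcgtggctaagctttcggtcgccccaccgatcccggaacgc
Irf8, chr8:120736108-120736407, plus strand, GAS 171 and 153 bases before the start: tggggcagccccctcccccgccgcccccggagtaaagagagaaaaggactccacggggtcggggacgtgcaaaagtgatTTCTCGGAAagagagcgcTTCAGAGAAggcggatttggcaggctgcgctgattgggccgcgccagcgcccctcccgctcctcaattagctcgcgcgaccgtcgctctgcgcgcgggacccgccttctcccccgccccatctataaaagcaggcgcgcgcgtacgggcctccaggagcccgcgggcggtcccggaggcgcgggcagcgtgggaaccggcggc
A match describes these letters only, and windows of the other members without a match say nothing about binding elsewhere.

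Signals are the deposited MAS5 intensities on a linear scale. A signal floor of 20.1 was taken from the 50th percentile of the arrays (their median). Signals under it were raised to it for log2 ratios, limma fits and correlations between genes. Where 1 of a pair of arrays lay under the floor the fold is a lower bound, and where both did no ratio is given. With 1 array a group no difference within a line was tested, and fewer cells with a transcript cannot be told apart from less transcript per cell. The limma test used both fusion lines as repeats of a fusion line with the line as a block, and the words rose and fell stand for an adjusted p under 0.05 over 6808 genes in it. Its p-values measure the spread between lines and within the vector pair, not between repeat cultures.

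All arrays had a trimmed mean signal of 100.0, and 49.8% to 50.6% of probe sets exceeded the floor. Trimmed means this equal go with signals scaled to 1 level, and the share above the floor is nearly fixed by the way it was set. Both therefore say little about the arrays. Arrays of the vector pair correlated at r = 0.994 over 7018 genes, and the pairs of the fusion lines at 0.956 and 0.957. Of 11 matched pro-B and B cell markers, Cd79a, Cd79b and Ptprc exceeded the floor on every array, while 7, among them Pax5, Ebf1, Rag1, Vpreb1 and Dntt, were under it on every array. Markers of other lineages above the floor throughout were Cpa3 and Gata2 (mast cells), Adgre1 and Csf1r (macrophages), Gata1, Klf1 and Epor (erythroid cells) and Acta2 (fibroblasts). Of 7 macrophage and granulocyte markers 5 were never above the floor. The summed signal of all 7 was 361 to 375 in vector cells and 125 to 334 in fusion cells. Adgre1 alone had 284 and 305 in vector cells, 61.4 and 46.2 in the ETV6-PDGFRB line, and 270 and 174 in the FIP1L1-PDGFRA line. Of the 5 matched T and NK cell markers 0 exceeded the floor on every array. Of 7 mast cell and basophil markers 3 (Kit, Fcer1a and Ms4a2) were never above it. The summed signal of the mast cell and basophil markers was 782 to 945 in vector cells and 487 to 1973 in fusion cells, with Cpa3 at 814 and 1060.4 in the ETV6-PDGFRB line and at most 168 on every other array. That of the fibroblast markers was 61.6 to 70.5 and 72.9 to 486, where Acta2 had 462 and 298 in the ETV6-PDGFRB line and the other 6 markers were never above the floor. That of the erythroid markers was 589 to 614 and 492 to 1668, and Hba-a1 and Alas2 were never above the floor. The part of these levels in the members' values was not tested.

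Both subunits of ISGF3 among the members, Stat2 and Irf9, were high in untreated fusion cells, lower after imatinib and lowest in vector cells. The Stat2 signal was 25.7 in untreated and 22.5 in treated vector cells, 108 and 43.5 in the ETV6-PDGFRB line, and 117 and 37.6 in the FIP1L1-PDGFRA line. The untreated fusion arrays thus stood above every other array, and the treated ones lay between them and the vector arrays without overlap. Stat2 fell by 1.47 ± 0.13 on the log2 scale across the fusion lines (SE, limma adjusted p = 0.00467), with folds of 2.48 and 3.11 in ETV6-PDGFRB and FIP1L1-PDGFRA cells. A second, dimmer Stat2 probe set, 1421911_at, gave 42.3 and 26.6 in the ETV6-PDGFRB line, 57.9 and 21.1 in the FIP1L1-PDGFRA line, and 14.9 and 8.03, both under the floor, in vector cells. It fell too, by 1.06 ± 0.20 (limma adjusted p = 0.0264 over 10912 probe sets), where its values at the floor in vector cells add no spread.

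Irf9, which gives ISGF3 its grip on the ISRE, had signals of 30.1 and 24.3 in vector cells before and after imatinib. It went from 149 to 70.2 in the ETV6-PDGFRB line and from 158 to 75.6 in the FIP1L1-PDGFRA line, so both fusion lines gave nearly the same pair of levels. The folds were 2.13 and 2.09, and Irf9 fell by 1.08 ± 0.13 (SE, limma adjusted p = 0.00825). In vector cells the log2 ratio of Irf9 was -0.31, larger in size than the SD of 0.19 over all genes of that pair and the 278th lowest of 6674 ratios there, so the vector pair did not sit at 0 for this gene.

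**Figure D1:**
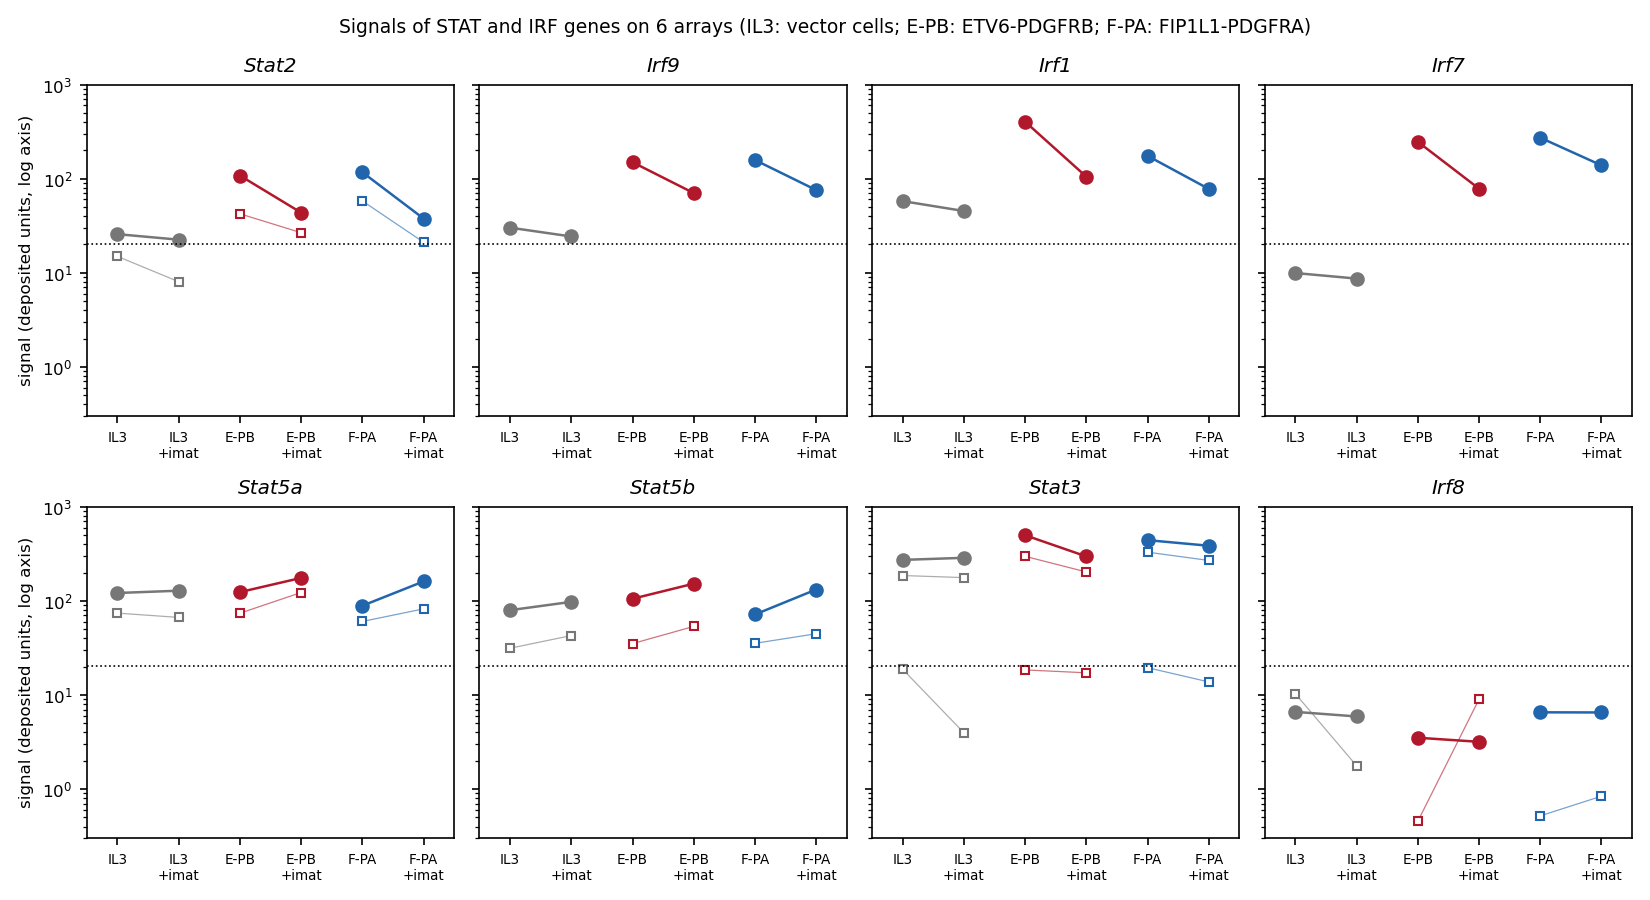
Signal of each STAT and IRF gene on the 6 arrays, on a log axis, with filled circles for the representative probe set, open squares for further probe sets and a dotted line at the floor of 20.1. Lines join the untreated and imatinib arrays of 1 line: Stat2, Irf9, Irf1 and Irf7 are highest in untreated fusion cells, Stat5a and Stat5b are higher after imatinib there, and Irf8 lies under the floor throughout.

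Irf1, a factor that STAT dimers switch on and that in turn drives antiviral and antigen presentation genes, had the largest fitted change of the members. Its signal was 57.7 and 45.3 in vector cells, 403 and 105 in the ETV6-PDGFRB line, and 175 and 77.7 in the FIP1L1-PDGFRA line. All 4 fusion arrays stood above both vector arrays, and the untreated ETV6-PDGFRB array stood apart at 2.31 times the level of the untreated FIP1L1-PDGFRA array. After imatinib that gap was 1.35-fold. Irf1 was 3.84-fold lower with the drug in the ETV6-PDGFRB line, the 37th lowest ratio of 6852 genes, and 2.25-fold lower in the FIP1L1-PDGFRA line, the 138th lowest of 6743. Across both lines Irf1 fell by 1.55 ± 0.22 (SE, limma adjusted p = 0.0116). The vector pair had a log2 ratio of -0.35, in the same direction and again beyond the SD of that pair.

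Irf7, the factor that amplifies interferon production, had the largest folds between fusion and vector cells. Its signals of 9.93 and 8.67 in vector cells were under the floor. In ETV6-PDGFRB cells it went from 247 to 78.3 and in the FIP1L1-PDGFRA line from 272 to 138. Untreated, it was higher than in vector cells by at least 12.3-fold (ETV6-PDGFRB) and at least 13.6-fold (FIP1L1-PDGFRA), and after imatinib by at least 3.90-fold and at least 6.89-fold against treated vector cells. The drug lowered the signal 3.15-fold in the ETV6-PDGFRB line and 1.97-fold in the FIP1L1-PDGFRA line, and Irf7 fell by 1.32 ± 0.17 (SE, limma adjusted p = 0.00968). The SE is too small, since vector arrays set to the floor add no spread; with the 4 fusion arrays alone the limma adjusted p was 0.0327. After imatinib Irf7 was 1.77-fold lower in ETV6-PDGFRB than in the FIP1L1-PDGFRA line, the 65th lowest of 6763 ratios between these arrays, although the untreated levels differed only 1.10-fold.

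Irf8 was under the floor on all 6 arrays with both of its probe sets, at 3.18 to 6.62 for 1416714_at and 0.453 to 10.3 for 1448452_at. It has no ratio, was not tested, and its level could not be compared at this signal.

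Stat5a and Stat5b went the other way and were higher after imatinib in both fusion lines. Stat5a had signals of 121 and 128 in vector cells, 124 and 175 in the ETV6-PDGFRB line, and 88.7 and 161 in the FIP1L1-PDGFRA line. Both treated fusion arrays exceeded the other 4 arrays. Stat5a rose by 0.68 ± 0.12 (SE, limma adjusted p = 0.0179), with folds of 1.42 and 1.81. Its second probe set, 1450259_a_at, gave 73.9 and 123 in the ETV6-PDGFRB line, 60.4 and 82.2 in the FIP1L1-PDGFRA line, and 74.1 and 66.7 in vector cells, and rose as well, by 0.59 ± 0.12 (limma adjusted p = 0.0313 over probe sets).

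Stat5b had signals of 79.6 and 97.6 in vector cells, 105 and 152 in the ETV6-PDGFRB line, and 71.6 and 132 in the FIP1L1-PDGFRA line. Here the untreated FIP1L1-PDGFRA array was the lowest of all and the treated vector array lay close to the untreated ETV6-PDGFRB array. Stat5b rose by 0.71 ± 0.15 (SE, limma adjusted p = 0.0267), with folds of 1.45 and 1.84. The vector pair had a log2 ratio of 0.29, in the same direction. The dimmer Stat5b probe set 1422102_a_at did not pass (0.47 ± 0.18, limma adjusted p = 0.119 over probe sets), and its ratio was 0.45 in vector cells against 0.61 and 0.34 in the fusion lines. The erythroid factor genes Klf1 and Gata1 also had higher signals after imatinib in both fusion lines. Klf1 went from 313 to 943 in the ETV6-PDGFRB line and from 132 to 770 in the FIP1L1-PDGFRA line, with 185 and 180 in vector cells, and Gata1 from 407 to 641 and from 323 to 725, with 373 and 355. Their part in the Stat5a and Stat5b values was not tested. Stat5a and Stat5b are close paralogs, and whether their probe sets also bind the other transcript was not tested. In the RefSeq table they are neighbours on chromosome 11 with 0 protein-coding genes between them, with Stat3 next to Stat5a.

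Stat3 was higher in both untreated fusion lines than in vector cells, and its change with imatinib did not pass. Its signal was 273 and 287 in vector cells, 498 and 297 in the ETV6-PDGFRB line, and 442 and 385 in the FIP1L1-PDGFRA line. Both untreated fusion arrays were above the rest, while the treated ETV6-PDGFRB array was within 1.03-fold of the treated vector array. The change across the fusion lines was the one that missed the threshold (-0.47 ± 0.15, limma adjusted p = 0.0737), with ratios of -0.75 and -0.20. Probe set 1460700_at gave 297 and 203 in the ETV6-PDGFRB line, 329 and 269 in the FIP1L1-PDGFRA line, and 186 and 177 in vector cells. With it the untreated FIP1L1-PDGFRA array was the highest, and all 4 fusion arrays exceeded the vector arrays (limma change -0.42 ± 0.11, limma adjusted p = 0.0516 over probe sets). The third, 1424272_at, was under the floor on every array. Signals depend on the probes, so levels are not compared between genes.

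**Figure D2:**
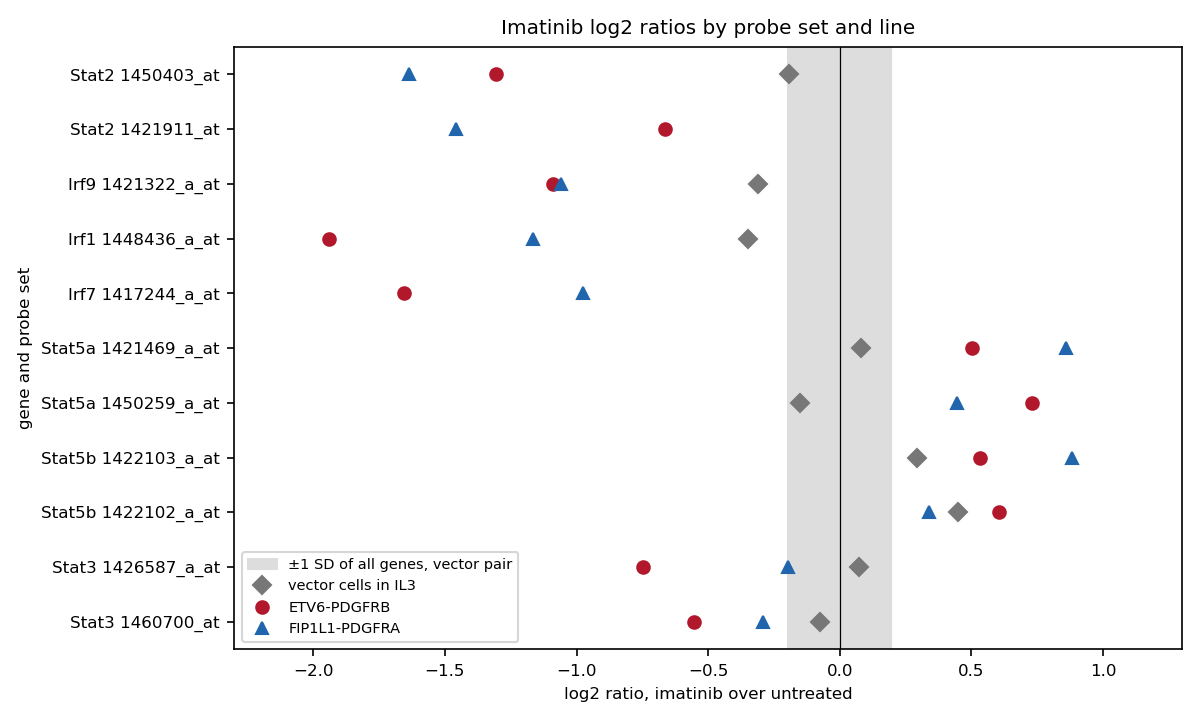
Log2 ratio of imatinib over untreated for each member probe set above the floor, by line, with a grey band of 1 SD of all genes in the vector pair (0.19). Both Stat2 probe sets, Irf9, Irf1, Irf7 and both Stat3 probe sets shown lie left of the band in both fusion lines. For Stat3 1426587_a_at the FIP1L1-PDGFRA point (-0.20) is at its edge. The probe sets of Stat5a and Stat5b lie right of the band. Vector cells lie outside it on the same side for Irf9 (-0.31), Irf1 (-0.35) and both Stat5b probe sets (0.29 and 0.45).

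Of the 7 members tested, 4 fell (Stat2, Irf9, Irf1 and Irf7), 2 rose (Stat5a and Stat5b) and Stat3 did not pass. Over all genes 12.4% fell and 13.5% rose, and scaling to the hybridization controls gave 1880 genes that fell and 395 that rose in place of 841 and 916. That scaling moved the median of all genes from 0.03 to -0.15 in ETV6-PDGFRB and from 0.05 to -0.22 in the FIP1L1-PDGFRA line; under it the same 6 members passed in the same directions, and Stat3 passed too (-0.70, limma adjusted p = 0.0166). The members' median limma change was -1.08, against 0.04 for all genes tested. With either fusion pair left out, 0 genes in all passed (2167 and 2334 at an unadjusted p under 0.05), and the limma adjusted p of these 6 members lay between 0.102 and 0.227. With a lower floor at the 40th percentile or with log2(signal + 16), Stat5b no longer passed (limma adjusted p = 0.0527 and 0.0605).

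Counted past 2-fold, 4 of the 7 measured members were lower with imatinib in the ETV6-PDGFRB line, where 2.86% of all genes were. In FIP1L1-PDGFRA cells 3 were lower, against 2.97%, with Irf7 just short of 2-fold. Past 2-fold higher were 0 members in either line, against 1.61% and 2.19% of all genes. In vector cells 0 of 6 measured members passed 2-fold, against 0.0599% lower and 0.0749% higher among all genes. The response of the fusion lines minus that of the vector pair was tested with limma, which called 0 members and 0% of genes; at an unadjusted p under 0.05 it gave 4 members and 17.3% of genes. The difference was -1.28 ± 0.23 for Stat2, -1.20 ± 0.37 for Irf1, -0.76 ± 0.19 for Irf9, -1.32 ± 0.34 for Irf7, 0.60 ± 0.24 for Stat5a and 0.41 ± 0.24 for Stat5b. For Irf7 the vector pair is set to 0 by the floor, so its difference equals its change in fusion cells. The lowest limma adjusted p among the members was 0.175, for Stat2.

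**Figure D3:**
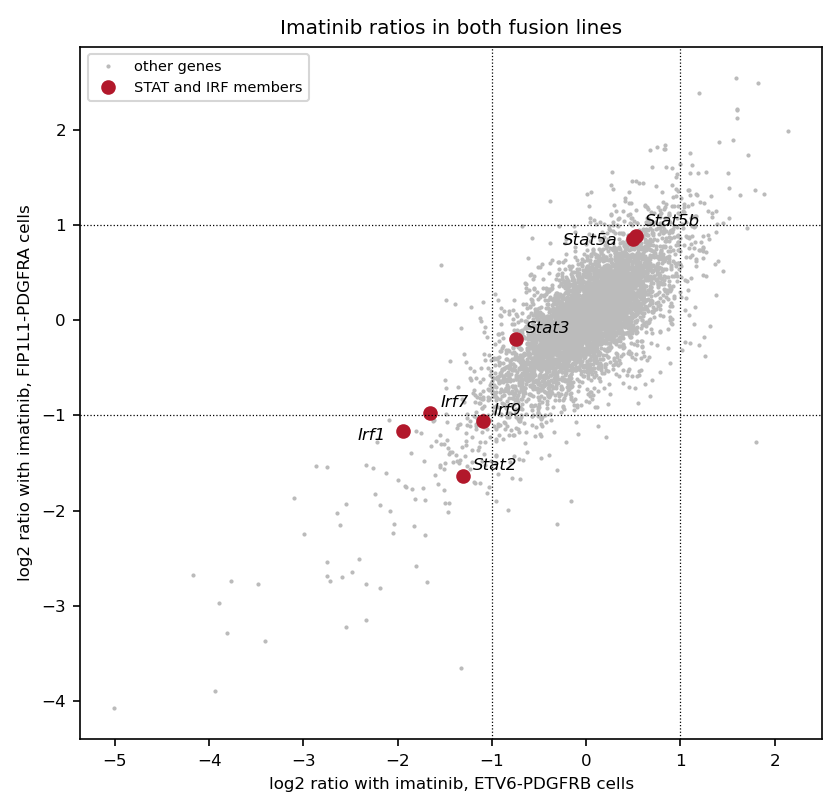
Log2 ratio with imatinib in the ETV6-PDGFRB line (horizontal) and FIP1L1-PDGFRA cells (vertical) for each gene measured in both lines, with the 7 measured members in red and dotted lines at 2-fold; ratios with 1 array at the floor are drawn at their bound. Irf1, Stat2 and Irf9 lie past 2-fold lower in both lines, Irf7 in the first only, and Stat5a and Stat5b lie together at 0.50 to 0.53 and 0.86 to 0.88.

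Without the drug, Irf1, Irf7, Irf9 and Stat2 were more than 2-fold higher in each fusion line than in vector cells, 4 of 7 members in either comparison against 2.24% and 1.82% of all genes. Both comparisons share the vector array. Irf9 was 4.96-fold and 5.24-fold higher and Stat2 4.19-fold and 4.55-fold higher in ETV6-PDGFRB and FIP1L1-PDGFRA cells, and Irf1 6.98-fold and 3.03-fold higher. Stat3 was 1.83-fold and 1.62-fold higher. Stat5a was within 1.02-fold of vector cells in the ETV6-PDGFRB line and 1.37-fold lower in the FIP1L1-PDGFRA line. No member was 2-fold lower, against 0.736% and 0.327% of genes.

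After 4 h of imatinib the interferon-linked members were still above treated vector cells. Irf9 was 2.89-fold and 3.11-fold higher, Irf1 2.31-fold and 1.72-fold, and Stat2 1.94-fold and 1.68-fold. Past 2-fold were 3 members in the ETV6-PDGFRB line, against 4.43% of genes, and 2 in the FIP1L1-PDGFRA line, against 2.23%. Past 2-fold lower were 0 members in either line, against 3.72% and 2.38%. Stat5a and Stat5b were 1.37-fold and 1.56-fold higher in the ETV6-PDGFRB line and 1.25-fold and 1.35-fold higher in the FIP1L1-PDGFRA line. With 1 array a group these differences were not tested.

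**Figure D4:**
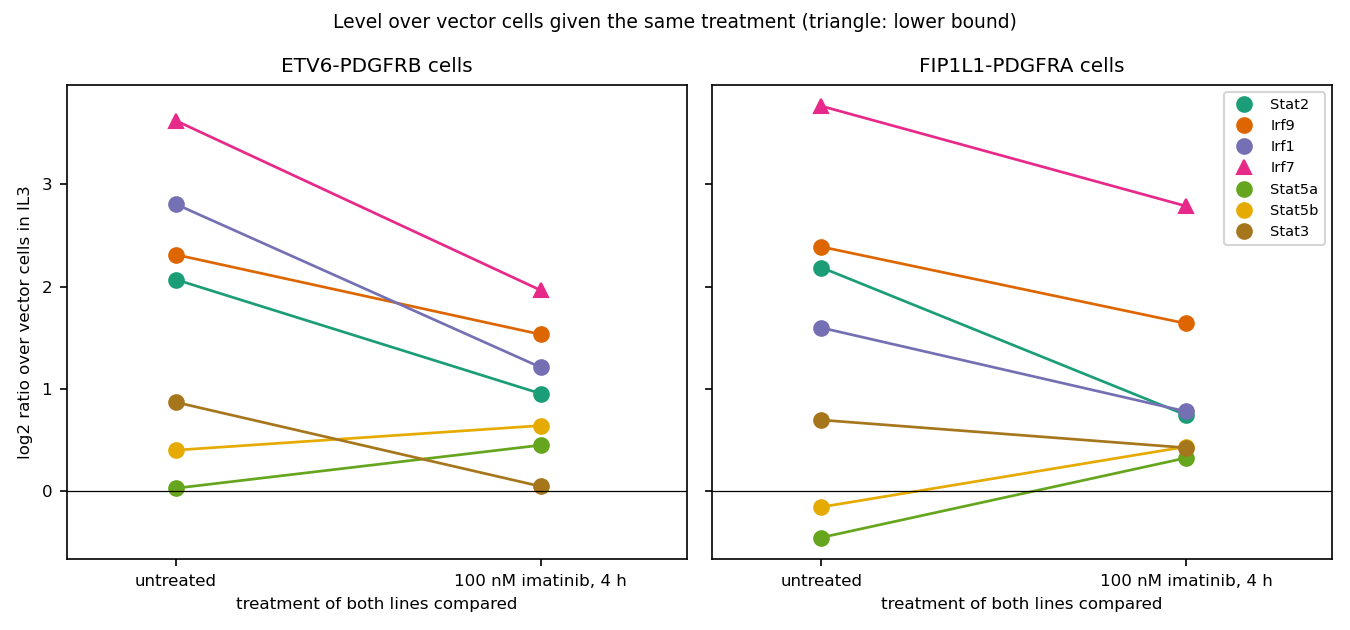
Log2 ratio of each fusion line over vector cells given the same treatment, untreated and after 100 nM imatinib for 4 h, for the 7 measured members. Triangles mark Irf7, whose ratio is a lower bound; Stat2, Irf9, Irf1 and Irf7 come down with the drug but stay above 0, and Stat5a and Stat5b go up.

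Log2 signals with the floor applied were compared between genes over the 6 arrays. The genes that followed a member most closely were taken from 1069 genes that were above the floor on at least 4 arrays and spanned at least 2-fold. Irf7, Oasl2, Rtp4, Gbp3 and Gbp2b were under the floor on both vector arrays, so each entered at the floor value there. The arrays are 3 lines in 2 states, so every r describes those contrasts and carries no p. Irf9 was nearest to Trim30a, Oasl2 and Epsti1 (r = 0.996, 0.996 and 0.995). Irf7 was nearest to Isg20, Epsti1 and Tdrd7 (0.996, 0.992 and 0.991), and Irf1 to the interferon-induced GTPase genes Gbp3, Gbp2b and Igtp (0.980, 0.975 and 0.972). Stat2 was nearest to Crem (0.996), which encodes a cAMP-responsive factor, ahead of Irgm1 (0.986) and Rtp4 (0.984). Crem had signals of 123 and 117 in vector cells, 276 and 172 in the ETV6-PDGFRB line, and 298 and 168 in the FIP1L1-PDGFRA line. Stat5b was nearest to Ankmy2 (0.992), Sesn1 (0.989) and Foxo3 (0.985), and Foxo3, a factor held back by PI3K and AKT signalling, went from 152 to 238 and from 109 to 191 in the fusion lines. Among the members themselves Irf9 and Irf7 had r = 0.985, Stat2 and Irf9 0.960, and Irf1 and Irf7 0.841, while Stat5b had values between -0.20 and 0.08 with Stat2, Irf9, Irf1 and Irf7. Stat3 and Stat5a spanned less than 2-fold and were left out of these correlations.

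Among other genes of the pathway, no interferon transcript was measurable: the 9 interferon genes with a probe set, among them Ifnb1 and Ifng, were under the floor on every array. Of 12 cytokine and interferon receptor genes tested 4 rose and 1 fell, against 13.5% and 12.4% of all genes. Ifngr1, the ligand-binding chain for interferon gamma, went from 81.7 to 193 in the ETV6-PDGFRB line and from 42.0 to 71.1 in the FIP1L1-PDGFRA line, with 32.3 and 34.0 in vector cells, and rose across both lines (limma adjusted p = 0.0107). Ifnar1, a chain of the type I interferon receptor, rose by 0.51 ± 0.11 (limma adjusted p = 0.031), as did Il10rb (0.50 ± 0.10, limma adjusted p = 0.0221) and Epor (0.85 ± 0.21, limma adjusted p = 0.0421). Il4ra, the interleukin 4 receptor, fell by 2.14 ± 0.13 (limma adjusted p = 0.00274). With the hybridization control scaling 1 receptor gene rose and 2 fell.

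Of the 4 JAK kinase genes 0 passed in limma, against 25.8% of all genes in either direction. The nearest to the threshold was Tyk2 (0.29 ± 0.09, limma adjusted p = 0.0769). Jak1 ranged from 257 to 312 over the 6 arrays. Jak2, the kinase bound to the IL3 receptor, was 93.2 and 111 in vector cells and 145 to 164 in the fusion cells, and Tyk2 was 56.1 to 75.3. Jak3 ranged from 36.2 to 65.7. Among the remaining STAT genes, Stat6 ranged from 114 to 135 and did not pass, and Stat4 was under the floor on every array. Of the remaining IRF genes, Irf3, the constitutive partner of IRF7, ranged from 99.9 to 131, Irf2 from 33.2 to 53.0 and Irf5 from 25.8 to 43.7. These genes had no limma call, against 25.8% of all genes (limma adjusted p = 0.226 for Irf5, 0.682 for Irf2 and 0.752 for Irf3). A dimmer Irf3 probe set, 1416898_a_at, had 31.1 and 37.3 in vector cells. It went from 53.3 to 33.1 in the ETV6-PDGFRB line and from 37.4 to 33.1 in the FIP1L1-PDGFRA line. That change did not pass either (-0.43 ± 0.17, limma adjusted p = 0.127 over probe sets). Irf4 was under the floor throughout.

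Inhibitors of JAK-STAT signalling fell in 6 of 19 cases and rose in 1, against 12.4% and 13.5% of all genes. Socs1, a JAK inhibitor, was 85.0 and 76.7 in vector cells and went from 213 and 207 to 8.16 and 5.63, both under the floor, in the fusion lines. Cish, a STAT5 target that blocks STAT5 docking, fell by 2.74 ± 0.20 (SE, limma adjusted p = 0.00383). Usp18, which restrains the type I interferon receptor, fell by 3.13 ± 0.18 (limma adjusted p = 0.00271); its vector arrays were under the floor. Pias3, named as an inhibitor of activated STAT3, rose (limma adjusted p = 0.0107). It went from 24.9 to 54.1 in the ETV6-PDGFRB line and from 18.5, under the floor, to 62.2 in the FIP1L1-PDGFRA line. In vector cells it had 22.3 and 29.5, a log2 ratio of 0.41 in the same direction.

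Known targets of the members fell in most cases. Of 27 tested ISGF3 targets 26 fell and 0 rose, against 12.4% and 13.5% of all genes, with a median limma change of -1.49. Of 20 tested STAT5 targets 12 fell and 0 rose, with a median of -1.16. In the vector pair the medians were -0.02 and 0.00, over genes above the floor on at least 1 vector array. ISGF3 targets under it on both vector arrays, such as Ifit1, Rtp4 and Oasl2, had no ratio there and are not in that median. Ifit1, an antiviral RNA-binding protein gene, went from 307 and 457 in the untreated fusion lines to 11.4, under the floor, and 30.7. Rtp4 went from 732 and 532 to 49.3 and 67.9. Lif, a cytokine gene under STAT5 control, went from 161 and 95.0 to 19.1 and 12.1, both under the floor, against 28.9 and 34.8 in vector cells. Id1 went from 267 and 361 to 50.4 and 63.5, with 418 on both vector arrays. Both lists were known from earlier results to fall in these samples, so their direction is no independent evidence. The ISGF3 targets Cxcl10, Mx1, Ifit3, Mx2 and Rsad2 were above the floor on the untreated fusion arrays only. They entered the test through those arrays and could only fall. Where both vector arrays of a target were under the floor, they add no spread and the SE is too small.

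Of 11 tested genes of nucleic acid sensing upstream of IRF3 and IRF7, 4 fell and 0 rose, against 12.4% and 13.5% of all genes. The 4 that fell were Dhx58, an RNA sensor, Traf6, Trim25 and Myd88, an adaptor of Toll-like receptors. Myd88 went from 241 to 193 and from 257 to 168 (-0.47 ± 0.11, limma adjusted p = 0.0366). The lists share genes, so their counts are not separate results. Dhx58, Trim25 and the inhibitor Usp18 are also among the ISGF3 targets that fell. Il4ra and the inhibitors Socs1, Cish and Socs2 are also among the STAT5 targets that fell. Tbk1, the kinase of IRF3 and IRF7, did not pass. Among 14 tested partners and cofactors 4 fell and 0 rose, against the same shares of all genes. Batf2, a partner of IRF factors, went from 172 to 3.96 and from 73.1 to 12.1, under the floor after the drug as in both vector arrays. Batf2 entered the test through the untreated fusion arrays only, so it could only fall and its vector arrays add no spread. Nmi, a STAT-binding protein, was 42.7 and 49.0 in vector cells and went from 308 to 164 and from 237 to 160, and fell by 0.74 ± 0.13 (limma adjusted p = 0.0179). Ets2 fell by 0.58 ± 0.09 (limma adjusted p = 0.014) and Kpna1, an importin gene, by 0.56 ± 0.11 (limma adjusted p = 0.0249). Spi1, the partner of IRF8, did not pass.

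**Figure D5:**
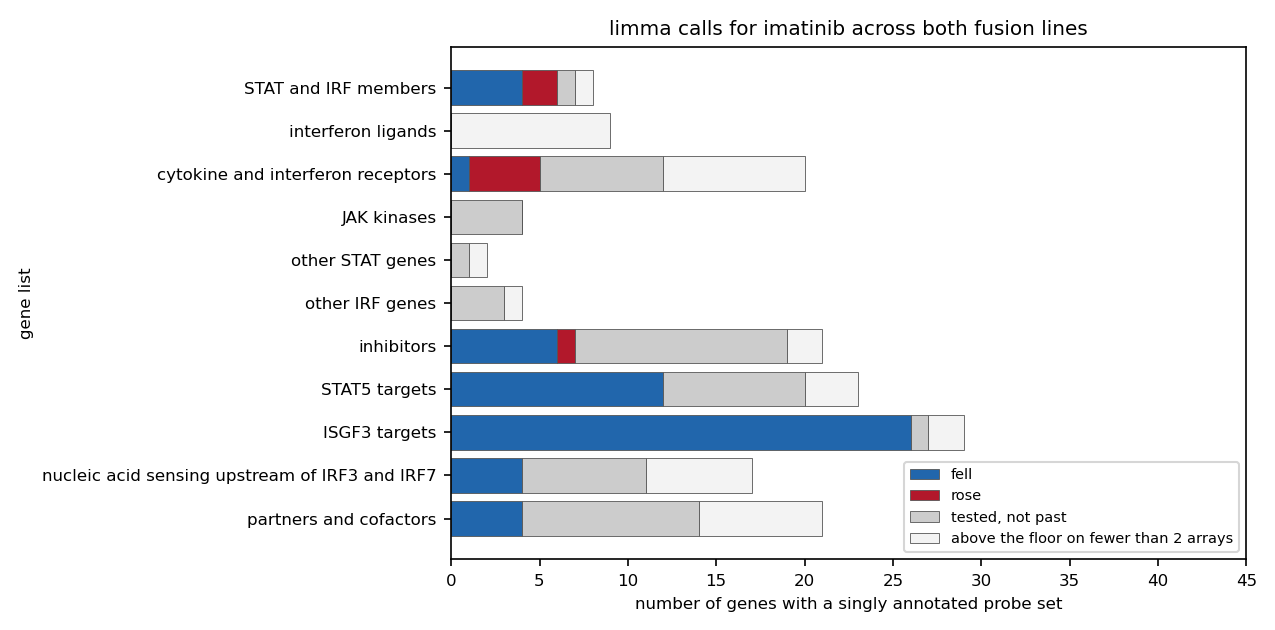
Number of genes that fell, rose or did not pass in the limma test of imatinib across both fusion lines, and of genes above the floor on fewer than 2 arrays, for the STAT and IRF members and 10 lists of related genes. Calls are absent for interferon ligands, JAK kinases and the remaining STAT and IRF genes, and 26 of 27 tested ISGF3 targets fell.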

How the data were processed

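The authors deposited 1 intensity signal per probe set and array, for which the submitters' processing notes name GCOS 1.4.0 and MAS5. The annotation pairs 20380 non-control probe sets with 1 gene symbol, and 0 symbols changed by gene number in RefSeq. The fit in limma 3.58.1 (R 4.3.3) on log2 signals blocked on the line and had a single drug term, for fusion cells, with 2 residual and 3.10 prior degrees of freedom; genes needed 2 or more arrays above the floor. It was tested on simulated data. Detection calls, background settings and a genome build are not given in the sources used here. Figures and motif searches used Python 3.11.15 (matplotlib 3.10.9). The members, lists and tests were chosen with earlier results of these data known. Named genes were all 8 members, up to 4 called genes with the largest change per list, the JAK, STAT and IRF relatives (some listed genes are not reported here), and the 3 genes most like each member that spanned at least 2-fold. Il10rb, Tbk1, Spi1 and the B cell and lineage markers were named besides, after their values were seen. Alternatives covered the floor, the pseudocount, scaling, probe set choice, the arrays fitted and each fusion pair left out.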

Additional observations from a re-analysis of the deposited data

Results flagged for a closer look

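In 2 probe sets of the members the vector pair moved against both fusion lines. For Stat3 1426587_a_at the log2 ratio with imatinib was 0.073 in vector cells, -0.75 with ETV6-PDGFRB and -0.20 with FIP1L1-PDGFRA (limma adjusted p of the difference 0.456 over probe sets). For Stat5a 1450259_a_at it was -0.15 in vector cells, 0.73 with ETV6-PDGFRB and 0.44 with FIP1L1-PDGFRA (limma adjusted p of the difference 0.286). Both vector ratios were within the SD of 0.19 over all genes of that pair.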

How the results depend on the processing

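With 1 array a group, the limma results rest on both fusion lines varying alike, and signals under the floor give no order. Every alternative was planned. Quantile normalization, scaling to the mean of all probe sets, the mean of a gene's probe sets and the fit over every probe set moved no count past 1.5 times and ended no call of a member. No result reversed. With the floor at the 40th percentile 588 genes rose (916 in the report), 1 member rose in place of 2, Stat5b no longer passed (0.71), 2 receptor genes rose in place of 4 and 2 sensing genes fell in place of 4. With the floor at the 60th percentile 1 member was at least 2-fold above treated vector cells in each treated fusion line (3 and 2 in the report), 2 inhibitors rose in place of 1, and the response differed from the vector pair for 10 genes in place of 0. With log2(signal + 16) 419 genes rose and 470 fell, 1 member rose, Stat5b no longer passed (0.61), 1 receptor gene rose, 2 sensing genes fell and 2 partners fell in place of 4. Scaled to the hybridization controls, 395 genes rose and 1880 fell, Stat3 passed (-0.70), 1 receptor gene rose and 2 fell, and 7 partners fell. With the 4 fusion arrays alone 418 genes rose and 471 fell, 1 receptor gene rose and 1 sensing gene fell. For these settings the cause was not tested. With either fusion pair left out, which leaves 1 residual degree of freedom, 0 genes, 0 members and 0 genes of every list passed in limma. At an unadjusted p under 0.05 there were 2167 genes without the ETV6-PDGFRB pair and 2334 without the FIP1L1-PDGFRA pair, with 6 members each time. The members' changes then ranged from -1.64 to -1.31 for Stat2, from -1.09 to -1.06 for Irf9, from -1.94 to -1.17 for Irf1, from -1.66 to -0.98 for Irf7, from 0.50 to 0.86 for Stat5a and from 0.53 to 0.88 for Stat5b. The limma fit already pairs the arrays of each line, and every group has 1 array, so replicate numbers give no further pairing.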
